A study of Mus musculus with 16 samples.

Results

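R-loops that were called in wild-type (WT) cells and again in Xpo4 knockout (KO) cells are described here. Peaks of the 2 WT libraries made without RNase R were merged into 5312 regions on chromosomes 1 to 19 and X. A region was kept if it overlapped by at least 1 bp a peak of either KO library made without RNase R, and if it overlapped no WT peak left after RNase R. In this way 2149 of the 5312 regions (40.5%) were selected on the peak calls of the WT and KO libraries themselves, and they are called shared regions below. A further 2987 regions (56.2%) met no KO peak and are called WT-only regions, and 176 met a WT peak left after RNase R and were set aside. The shared regions had a median width of 305 bp and covered 756 kb.

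The study profiled R-loops by DNA:RNA hybrid immunoprecipitation sequencing (DRIP-seq), in which the S9.6 antibody pulls down DNA:RNA hybrids and the DNA is sequenced. The cells were NIH/3T3, an embryonic fibroblast line of the mouse obtained from ATCC. WT cells were the unedited line. KO cells were made from it with CRISPR-Cas9, and both copies of Xpo4 carry the same edit according to the methods. Before the pull-down, the DNA of both genotypes was cut with MseI, DdeI, AluI and MboI, mixed with E. coli DNA and incubated with reaction buffer alone (RNase R-) or with RNase R (RNase R+), and each of these 4 groups had 2 replicate libraries with a peak list. Nothing in the labels says whether replicates came from separate cultures or the KO cells from more than 1 clone, so spreads between replicates may be technical. Peak lists measure no RNA, so neither the loss of Xpo4 nor the fibroblast identity of the cells could be checked in them.

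An R-loop is an RNA strand paired with 1 strand of a DNA duplex, with the other DNA strand left single. R-loops form during transcription, and long runs of purines on 1 DNA strand are known to hold RNA firmly, because purine RNA pairs strongly with pyrimidine DNA. Exportin 4, the product of Xpo4, is a nuclear transport receptor, studied here for the export of circular RNAs. RNase R digests linear RNA and spares circles, and the study names RNase R+ peaks ciR-loops.

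A few shared regions had very tall peaks without purine runs, and 1152 regions held such a run near the summit. Windows of 300 bases around the WT summits show both kinds. They are printed from RefSeq GRCm38.p6, 5′ to 3′ on the plus strand, in lower case, with a run of at least 40 bases made only of purines (A, G) or only of pyrimidines (C, T) in capitals. The first 2 belong to the shared regions with very high enrichment and hold no such run. They lie at chr5:146261016-146261315 in an intron of Cdk8 and at chr2:5379112-5379411 in an intron of Camk1d.

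Cdk8 intron: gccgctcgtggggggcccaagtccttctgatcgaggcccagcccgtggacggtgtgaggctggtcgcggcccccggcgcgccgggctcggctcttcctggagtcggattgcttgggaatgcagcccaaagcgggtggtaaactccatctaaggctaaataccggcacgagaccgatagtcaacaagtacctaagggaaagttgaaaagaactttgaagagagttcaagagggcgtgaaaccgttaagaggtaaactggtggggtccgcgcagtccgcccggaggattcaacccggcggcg

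Camk1d intron: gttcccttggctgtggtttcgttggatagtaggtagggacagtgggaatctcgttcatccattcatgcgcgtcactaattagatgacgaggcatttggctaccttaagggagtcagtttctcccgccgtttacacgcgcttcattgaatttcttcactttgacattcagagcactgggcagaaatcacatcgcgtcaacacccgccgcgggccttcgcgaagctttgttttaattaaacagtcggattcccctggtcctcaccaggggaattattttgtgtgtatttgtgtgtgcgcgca

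The next 4 carry a run and were called in WT and KO in both replicates. They lie at chr16:3116209-3116508 outside genes, at chr17:52695513-52695812 in an intron of Kcnh8, at chr4:68757412-68757711 outside genes, and at chr15:36084228-36084527 within 1000 bp of a transcript start of Rgs22. Their longest runs were 69, 134, 103 and 214 bases.

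chr16 intergenic: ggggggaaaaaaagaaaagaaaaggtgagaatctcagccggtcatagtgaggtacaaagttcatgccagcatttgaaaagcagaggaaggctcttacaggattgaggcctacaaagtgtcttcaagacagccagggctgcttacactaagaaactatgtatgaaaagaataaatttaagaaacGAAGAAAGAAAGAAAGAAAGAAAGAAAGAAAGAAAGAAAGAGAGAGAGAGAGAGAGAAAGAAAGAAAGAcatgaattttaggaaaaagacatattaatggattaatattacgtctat

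Kcnh8 intron: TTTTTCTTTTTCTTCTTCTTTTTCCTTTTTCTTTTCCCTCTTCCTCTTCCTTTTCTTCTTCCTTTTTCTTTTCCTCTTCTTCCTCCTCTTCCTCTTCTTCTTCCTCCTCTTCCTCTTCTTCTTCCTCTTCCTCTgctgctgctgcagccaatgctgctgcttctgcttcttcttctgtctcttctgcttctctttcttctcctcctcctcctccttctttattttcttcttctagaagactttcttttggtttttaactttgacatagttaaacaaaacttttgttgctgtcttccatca

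chr4 intergenic: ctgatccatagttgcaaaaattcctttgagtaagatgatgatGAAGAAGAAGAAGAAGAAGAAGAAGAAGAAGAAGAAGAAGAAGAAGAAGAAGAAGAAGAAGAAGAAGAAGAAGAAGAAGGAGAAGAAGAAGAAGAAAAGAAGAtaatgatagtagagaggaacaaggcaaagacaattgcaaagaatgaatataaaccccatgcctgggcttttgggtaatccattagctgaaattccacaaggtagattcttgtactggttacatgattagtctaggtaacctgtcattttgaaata

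Rgs22: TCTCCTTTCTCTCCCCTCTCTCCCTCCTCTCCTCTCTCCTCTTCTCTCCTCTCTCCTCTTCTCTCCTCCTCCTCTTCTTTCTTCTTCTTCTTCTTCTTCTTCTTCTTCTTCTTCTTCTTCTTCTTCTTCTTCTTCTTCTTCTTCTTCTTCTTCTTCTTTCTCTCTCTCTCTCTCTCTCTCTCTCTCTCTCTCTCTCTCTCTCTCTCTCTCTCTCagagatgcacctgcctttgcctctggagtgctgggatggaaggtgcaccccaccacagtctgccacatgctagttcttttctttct

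The number of shared regions in each list is set by the rule and is given as a description. WT replicates 1 and 2 called 1535 and 946 of the 2149 regions, and KO replicates 1 and 2 called 1522 and 1716. Both WT replicates called 332 shared regions (15.4%), compared with 11.5% of all WT regions and 170 of 2987 WT-only regions (5.69%). Both KO replicates called 1089 shared regions (50.7%), compared with 32.2% of all 43820 KO regions. All 4 lists called 228 shared regions (10.6%). Of the shared regions called in both WT replicates, 68.7% were called in both KO replicates, while this share was 47.7% and 46.7% for regions called in WT replicate 1 alone or WT replicate 2 alone.

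Most shared regions rested on few fragments. The summit height, the number of fragments over the summit, was solved for each peak from its deposited fold and p. At shared regions the median height was 10 and 11 fragments in the WT replicates and 17 in each KO replicate. The background level that the peak caller assumed was 0.479 and 0.489 fragments per position in WT and 0.843 and 0.896 in KO. Every KO library was above every WT library in background level, so level and genotype cannot be told apart. The study's reporting notes also list fewer uniquely mapped reads for the WT than for the KO immunoprecipitates without RNase R. Enrichment, the height divided by the level expected at the summit, had a median of 16.7 and 17.5 in the WT replicates and 14.2 and 13.9 in the KO replicates. WT-only regions had medians of 16.7 and 17.3 in the same WT lists, close to those of the shared regions.

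**Figure D1:**
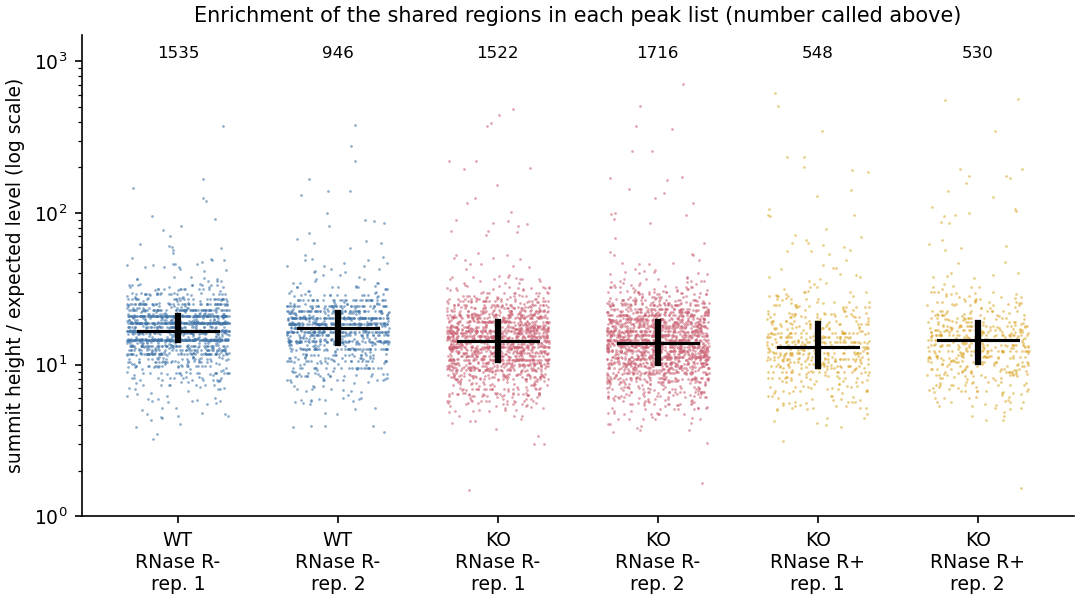
Enrichment of the shared regions in each peak list, as summit height over expected level on a log scale, 1 point for each region called in that list. Horizontal lines are medians, vertical bars run from the lower to the upper quartile, and the number called stands above each list. Medians lie between 12.99 and 17.5 in all 6 lists, and a few regions reach 711.

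Among the RNase R- lists, enrichments were more alike between replicates than between genotypes. Spearman's rho across regions was 0.59 between the WT replicates (332 regions) and 0.48 between the KO replicates (1089 regions), and it lay between 0.20 and 0.25 for the 4 pairs of a WT and a KO list (695 to 1237 regions). For the 4 pairs of a WT and a KO RNase R+ list it lay between 0.33 and 0.46 (298 to 408 regions). Each pair rests on its own set of regions, those called in both of its lists. The regions of a pair share their libraries, and a height near the threshold narrows the range, so these values are descriptions. KO replicates also placed the summit closer together, with a median distance of 29.0 bp, than WT replicates did (48.0 bp) or WT and KO libraries of the same number (61.5 and 60.0 bp). A KO peak covered a median of 86.2% of the shared region, and 1927 of 2149 regions (89.7%) lay mostly under KO peaks.

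Regions at the edge of the rule had ordinary values. Just inside lay chr19:5097108-5097365 in an intron of Cnih2, which met a KO peak by 1 bp, with a deposited fold of 5.99 in WT replicate 2 and 7.16 in KO replicate 2. The regions chr2:29534350-29534605 and chr6:58076332-58076609 met a KO peak by 1 and 2 bp, with WT folds of 5.41 and 7.30. Just outside lay chr4:67559530-67559914, chr19:44609477-44609804 and chr3:138412681-138412972, which stopped 0, 1 and 6 bp short of a KO peak and had WT folds of 8.35, 6.72 and 4.73. Only 104 of the 2987 WT-only regions (3.48%) lay within 500 bp of a KO peak.

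Purine or pyrimidine runs were more frequent in shared than in WT-only regions in both WT lists. The rule did not use sequence, but the run measure was chosen after values were seen, so the difference is a description. A run of at least 40 bases, on either strand, was present in 1152 of 2149 shared summit windows (53.6%) and in 824 of 2987 WT-only windows (27.6%), a difference of 26.02 percentage points. Among 8530872 adjoining windows of the same length across the genome the share was 2.59%. Within WT replicate 1 the shares were 52.6% and 27.5%, and within WT replicate 2 they were 47.1% and 26.5%. The difference within a list was 22.9 ± 3.18 percentage points (mean ± SD, n = 2 lists), with an exact two-sided sign-flip p of 0.5, the smallest that 2 lists allow. The median longest run was 48 bases in shared and 18 bases in WT-only windows. Longer runs gave the same order: runs of at least 100 bases were present in 29.0% of shared, 10.1% of WT-only and 0.596% of genome windows. KO regions without a WT region also carried runs of at least 40 bases often, in 45.6% of windows. Whether choosing WT regions by a KO peak brings in runs by itself was not tested.

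The share of WT regions that were shared rose with each class of run length. It was 30.0% (689 of 2293) for windows whose longest run was under 20 bases, 35.5% for 20 to 39 bases, 45.2% for 40 to 69 bases, 56.0% for 70 to 99 bases and 67.5% (624 of 925) for 100 bases or more. In WT, runs were more frequent at low than at tall peaks. In WT replicate 1, 63.7% of shared and 28.6% of WT-only windows had a run where the summit height was at most 8 fragments, while above 15 fragments the shares were 16.8% and 9.84%. In WT replicate 2 these shares were 64.4% and 27.9%, and 16.9% and 11.3%. The shared regions had the higher share in 8 of 8 bins of WT height. By KO height the order was another one: at KO peaks over shared regions the run share was 46.7% and 47.5% up to 10 fragments in KO replicates 1 and 2, 64.2% and 65.3% at 18 to 25 fragments, and 28.4% and 31.03% above 50 fragments. With only peaks of a fold of at least 10 in each list, 110 regions were shared and the difference was 0.97 percentage points.

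**Figure D2:**
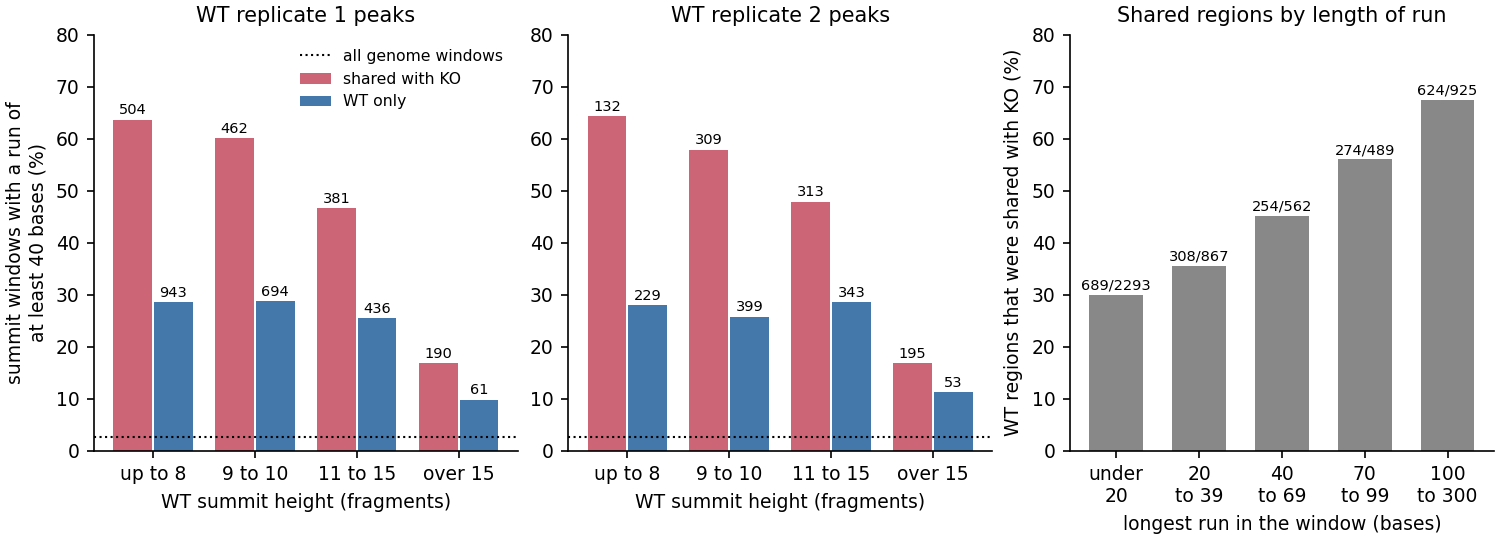
Left and middle, share of summit windows with a purine or pyrimidine run of at least 40 bases by WT summit height in fragments, for shared and WT-only regions, with the number of peaks above each bar and the genome share of 2.59% as a dotted line. Right, share of WT regions that were shared with KO by the longest run in the window, which goes from 30.0% under 20 bases to 67.5% at 100 bases or more.

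Restriction sites and repeats moved with the runs. Shared windows held a mean of 3.27 sites of the 4 restriction enzymes, WT-only windows 3.93 and genome windows 5.48, and within bins of the number of sites the difference in runs was 21.04 percentage points. RefSeq masked a mean of 68.1% of the bases of shared windows as repeats, 61.9% of WT-only windows and 34.3% of genome windows. The part of repeat mapping in the result was not tested.

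Most runs in shared windows were not made of 1 repeated unit. Of the 1152 windows with a run, 688 (59.7%) had no single unit of at most 5 bases for the run, as in the Kcnh8 and Rgs22 windows above. Such runs can still hold repeats: the Rgs22 run has a stretch of TTC units followed by a stretch of TC units. The unit AAAG made up the run in 208 windows (18.1%), as in the chr16 window, and AAG in 85 (7.38%), as in the chr4 window. AAAG runs were present in 9.68% of all shared and 3.58% of all WT-only windows. The median run had 106 bases, and the summit lay inside it in 578 windows (50.2%). The purine strand was the plus strand in 575 of 1152 windows (49.9%). In 448 shared windows inside genes of 1 strand only, purines lay on the sense strand in 168 (37.5%), with 35.4% and 44.0% in the WT replicates, compared with 35.1% of WT-only windows.

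Over all regions, shared and WT-only regions differed by under 3 percentage points in the share at genes, the share at promoters and the median GC content. Summits lay in genes for 44.8% of shared and 46.0% of WT-only regions, where genes cover 46.1% of bases, and the differences within the WT lists were -0.40 and -2.64 percentage points. Summits lay within 1000 bp of a transcript start for 7.40% and 6.36%, with differences of 1.44 and 1.11 percentage points, where such stretches cover 5.96% of bases. The median GC content of the windows was 42.3% and 42.0%. The differences in promoters and GC were larger for regions called in both WT replicates, at 2.91 and 2.33 percentage points, and with a fold of at least 10, at 7.06 and 4.50 percentage points. The exact sign-flip p was 0.5 for each of these differences, the smallest possible. By position, 159 shared summits lay at promoters, 30 in exons, 820 in introns and 1140 outside genes, and runs were present in 28.9%, 46.7%, 52.7% and 57.9% of them.

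The 10 shared regions with the highest WT enrichment among those in all 4 lists included introns of Cdk8, Camk1d, Gphn and Jarid2 and both 7SL RNA genes. The intronic region of Cdk8, which encodes a kinase of the Mediator complex, had the highest WT enrichment at chr5:146260937-146261368. Its enrichment was 376 and 378 in WT, 396 and 359 in KO, and 346 and 348 in KO RNase R+, so that the 6 lists lay close together. Only a short stretch of the large ribosomal RNA gene is annotated, so whether the windows of this region and of the next are copies of that RNA was not tested. A region in an intron of Camk1d, which encodes a calcium and calmodulin dependent kinase, at chr2:5379024-5379665 had enrichments of 167 and 278 in WT, 101 and 145 in KO, and 129 and 86.7 in KO RNase R+, and the KO values all lay below the WT values. An intronic region of Gphn, which encodes the synaptic scaffold gephyrin, reached 120 and 222 in WT, 196 and 170 in KO and 187 and 176 in KO RNase R+ at chr12:78350796-78351232. An intronic region of Jarid2, a partner of Polycomb repressive complex 2, had 96.0 and 99.7 in WT and 85.9 and 97.2 in KO at chr13:44869548-44870032.

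Some shared regions held sequence of ribosomal or mitochondrial RNA. Words of 31 bases from the annotated small ribosomal RNA gene were present in 8 of 2149 shared and 1 of 2987 WT-only regions, and words of the mitochondrial genome in 3 and 0. The annotated part of the large ribosomal RNA gene Rn28s1, shared words with 0 of them, which says nothing about copies of the rest of that gene, the Cdk8 and Camk1d windows included. Across these shared regions the part of the window's words that matched ranged from 0.37% to 100% for the small ribosomal RNA gene. For the mitochondrial genome it ranged from 2.59% to 68.5%, so some regions shared only a few words. The region chr6:3200560-3201662 shared 34.8% of the words of its summit window with the small ribosomal RNA gene and had enrichments of 81.7 and 140 in WT and 197 and 174 in KO. A summit window in Myo3a at chr2:22587529-22588143 shared 68.5% of its words with the mitochondrial genome and had enrichments of 36.9 and 47.0 in WT, 153 and 125 in KO, and 142 and 139 in KO RNase R+. Reads of such copies cannot be told apart from reads of the RNA's own gene where the sequence is the same.

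The 7SL RNA genes, whose RNA is the scaffold of the signal recognition particle, were among the tallest WT peaks and lower in KO. At Rn7s1 the summit heights were 60 and 82 fragments in WT, 13 and 18 in KO, and 25 and 17 in KO RNase R+. Their 95% exact Poisson intervals, which cover counting error only, were 45.8 to 77.2 and 65.2 to 102 in WT and 6.92 to 22.2 and 10.7 to 28.4 in KO. The enrichment was 125 and 168 in WT and 15.4 and 20.1 in KO, a level 8.23-fold lower in KO. At Rn7s2 (chr12:69361162-69361488) the enrichment was 146 and 131 in WT, 26.1 and 29.3 in KO, and 43.3 and 29.2 in KO RNase R+, 5.00-fold lower in KO than in WT without RNase R. Rn7sk, whose 7SK RNA holds the elongation factor P-TEFb inactive, had enrichments of 45.8 and 73.6 in WT, 29.6 and 20.1 in KO, and no KO RNase R+ peak (chr9:78175329-78175636). Its heights were closer, at 31 and 36 fragments in WT and 25 and 18 in KO. Their Poisson intervals overlapped, at 21.1 to 44.0 and 25.2 to 49.8 in WT and 16.2 to 36.9 and 10.7 to 28.4 in KO. The expected level at Rn7sk was 0.677 and 0.489 in WT and 0.843 and 0.896 in KO. Rn7s1 and Rn7s2 are near-identical copies, so reads kept as unique may not split truly between them.

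Small noncoding RNA genes, which include spliceosomal, ribosomal and signal recognition particle RNAs, overlapped 47 shared (2.19%), 48 WT-only (1.61%) and 175 of 41568 KO regions without WT (0.421%). Of the 47 shared regions, 26 met a small nuclear RNA gene, 12 a ribosomal RNA gene, 7 a microRNA gene and 4 a gene of the miscellaneous class that holds 7SL and 7SK RNA. The tandem 5S ribosomal RNA genes on chromosome 8 held 8 shared and 14 WT-only regions. All 4 lists called 10 of the 47. In 6 of these 10 both KO enrichments lay below both WT enrichments, and in 0 above, compared with 35.3% and 21.4% of all WT regions called in the 4 lists. The 6 include Rn7s1, its near-identical copy Rn7s2, and Rn7sk. Another, at Gm23935, had heights of 692 and 746 fragments in WT and 750 and 855 in KO. Its expected level was 16.3 and 14.9 in WT and 65.4 and 63.9 in KO. Heights at Gm24270 were 23 and 23 in WT and 17 and 23 in KO. At Gm23686 they were 11 and 14 in WT and 16 and 9 in KO.

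Among all 228 shared regions called in the 4 lists, both KO enrichments lay below both WT enrichments in 74 (32.5%) and above in 50 (21.9%). The 35.3% and 21.4% given above are shares of 295 WT regions that include these 228, so they are no separate comparison. The median KO minus WT difference in log2 enrichment was -0.15, with quartiles of -0.66 and 0.46. For same-numbered lists it was -0.26 in replicate 1 (1100 regions) and -0.27 in replicate 2 (766 regions), with 63.1% and 62.9% of regions lower in KO. This direction depends on the measure: with the deposited fold, which adds 1 to height and to expected level, the median was 0.20 toward KO. Regions whose expected level at the WT summit was over 3 times the background, called multi-copy here, had a median of 0.23 (79 regions), and the other 149 a median of -0.33. This name marks a raised expected level and counts no copies. The near-identical Rn7s1 and Rn7s2 and the region chr6:3200560-3201662 fall outside it, so the other regions can still hold repeated sequence. These values are descriptions, since the calls of both genotypes chose the regions and a called peak needs a higher enrichment where the background is lower.

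**Figure D3:**
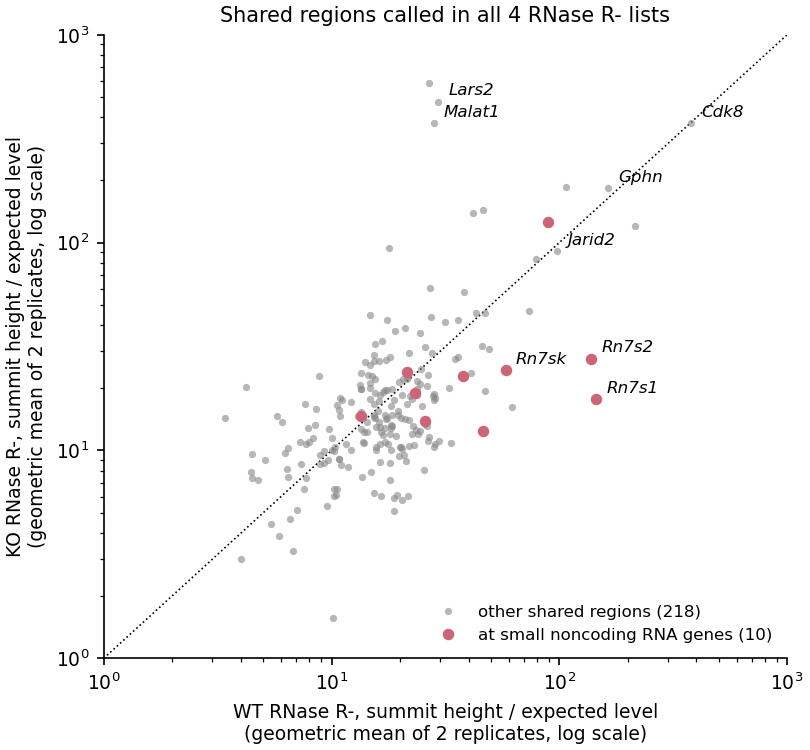
Enrichment in WT and KO, each the geometric mean of 2 replicates on log axes, for the 228 shared regions called in all 4 RNase R- lists, with the line of equal values. The 10 regions at small noncoding RNA genes are drawn in red, with Rn7s1 and Rn7s2 far to the lower right, and Lars2 and Malat1 stand at the upper left.

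Malat1, an abundant long noncoding RNA of nuclear speckles, was higher in KO. Its region at chr19:5800992-5802491 had summit heights of 17 and 13 fragments in WT, 317 and 337 in KO, and 178 and 148 in KO RNase R+. The expected level was 0.574 and 0.489 in WT and 0.843 and 0.896 in KO, and the enrichment was 29.6 and 26.6 against 376 and 376, 13.4-fold higher in KO.

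Other high KO values came with a change in the expected level. An intergenic region at chr11:109011637-109012128 had enrichments of 21.8 and 33.1 in WT and 486 and 711 in KO. Its heights were 317 and 347 fragments in WT and 636 and 637 in KO, while its expected levels were 14.6 and 10.5 in WT and 1.31 and 0.896 in KO. An exon of Lars2, the mitochondrial leucyl-tRNA synthetase, had heights of 230 and 232 in WT and 375 and 457 in KO and expected levels of 8.80 and 6.99 against 0.843 and 0.896 (chr9:123461792-123462197). In both regions the ratio between genotypes was larger in the expected level than in the height.

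KO RNase R+ peaks were found at 747 of 2149 shared regions (34.8%, 95% Wilson interval 32.8% to 36.8%), compared with 19.9% of all WT regions. The interval treats regions as separate draws from 2 shared libraries, so it does not cover the spread between libraries. Replicates 1 and 2 of KO RNase R+ held peaks at 548 (25.5%) and 530 (24.7%) of the shared regions, and both at 331 (15.4%). WT-only regions met such a peak in 100 (3.35%) and 107 (3.58%) cases. The rule did not use the KO RNase R+ lists, but it asked for a KO RNase R- peak at shared regions and none at WT-only regions. The gap to WT-only and to all WT regions is therefore a description and no independent result. By the rule, none of the shared regions had a peak in WT RNase R+, whose lists held only 260 and 340 peaks.

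Seen from the KO regions, a KO RNase R+ peak was present at 748 of 2150 KO regions over shared regions (34.8%) and at 5504 of 41568 KO regions without WT (13.2%), with 14.5% for all KO regions. The difference was 16.7 and 16.8 percentage points in the 2 KO RNase R+ lists (exact sign-flip p = 0.5, the smallest possible). Taller KO peaks more often had an RNase R+ peak, and KO peaks at shared regions were taller. Within bins of KO summit height the difference was 10.5 percentage points, and it favored shared regions in 24 of 24 comparisons. These are 6 bins of each KO list set against each RNase R+ list, so the same peaks enter more than 1 comparison. For KO replicate 1 against RNase R+ replicate 1 it was 16.1% against 4.32% up to 10 fragments, and 95.1% against 79.0% above 50 fragments.

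**Figure D4:**
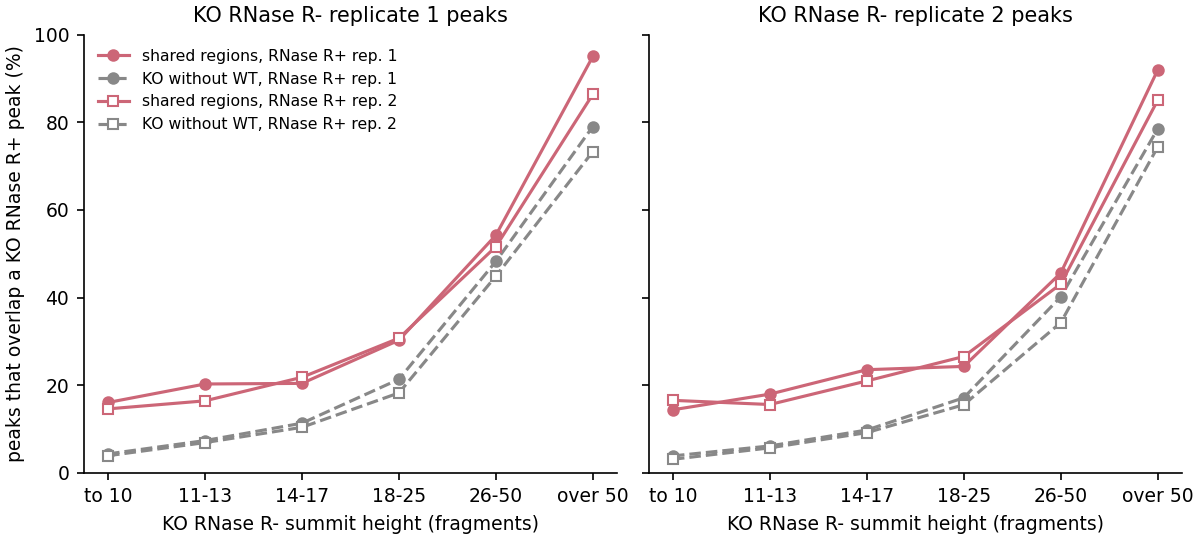
Share of KO RNase R- peaks that overlap a KO RNase R+ peak by summit height in fragments, for peaks at shared regions (red) and at KO regions without WT (grey), with circles for RNase R+ replicate 1 and squares for replicate 2. The red points lie above the grey points of the same replicate in 24 of 24 comparisons.

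Within the shared regions the RNase R+ share followed the strength of the WT call. It was 62.7% for regions called in both WT replicates and 29.7% for regions called in 1. Promoter regions had 49.7%, exon regions 46.7%, intron regions 33.3% and regions outside genes 33.4%. Multi-copy regions had 69.5% (91 of 131) and the others 32.5%. Regions with a run had 33.5% and those without 36.2%. Where a region was called in both, the KO RNase R+ minus RNase R- difference in log2 enrichment had a median of -0.16 in replicate 1 (457 regions) and -0.09 in replicate 2 (474 regions). KO peaks at shared regions that had an RNase R+ peak in the library of the same number had a median height of 20 and 21 fragments, and those that had none 15 and 16.

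Shared summits lay in 865 of 53843 annotated genes (1.61%), and these were long: the median gene with a shared region spanned 91.6 kb and the median gene 3.52 kb. Of 240 genes over 500 kb, 86 (35.8%) held one. Longer genes hold more bases, and whether genes with WT-only regions differ in length was not tested. A list of very long genes had 14 of 25 with a shared region, and held 42 shared and 56 WT-only regions. Among them Ptprd, a receptor tyrosine phosphatase, held 14 shared and 9 WT-only regions. Of 19 known hosts of circular RNAs, Arhgap10, Fbxw7, Rims2 and Slc8a1 held shared regions. These 19 hosts were long too, with a median of 135 kb, and the part of length in this count was not tested. Of 26 genes of R-loop processing, Thoc5, a subunit of the THO complex that packages nascent RNA, held 1, with enrichments of 18.8 in WT replicate 1 and 8.43 and 16.0 in KO. Exportins and importins had 0 of 18, fibroblast markers 0 of 22, and nuclear long noncoding RNAs 2 of 9, Malat1 and Pvt1.

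Promoter regions of protein-coding genes were led by Rn7s1, which also lies near the start of Rps29. The next were Tex14 at chr11:87426678-87427056, with 20.1 and 49.1 in WT and 28.2 in KO replicate 1, and Sp140 at chr1:85634911-85635199, with 31.1 in WT replicate 1 and 12.8 and 13.5 in KO. The Sp140 window held a run of 85 bases, and the Tex14 region overlaps the small nuclear RNA gene Gm22068.

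Shared regions were unevenly spread, and so were WT-only and KO regions. Per 10 Mb there were 0.819 shared regions on chromosome X, 3.05 on chromosome 9 and 3.13 on chromosome 2, against 16.7 on chromosome 15 and 19.1 on chromosome 17. On chromosomes X and 17, WT-only regions had 1.52 and 22.8 per 10 Mb, and KO regions 67.9 and 248. Chromosome 8 had 14.2 shared and 23.9 WT-only regions. The densest stretch of 1 Mb, on chromosome 8 from 20 Mb, held 32 shared and 5 WT-only regions around Gm26804 and 2610005L07Rik, and 28 of the 32 met a KO RNase R+ peak. On chromosome 4 from 147 Mb, 13 shared regions lay among zinc finger genes such as Zfp984, Zfp985 and Zfp988, and on chromosome 11 from 3 Mb, 13 lay around Drg1, Pes1 and Sfi1. Several of those in Sfi1 and Drg1 were multi-copy as defined above, and others in that stretch were not. The part of repeated sequence in these dense stretches was not tested.

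**Figure D5:**
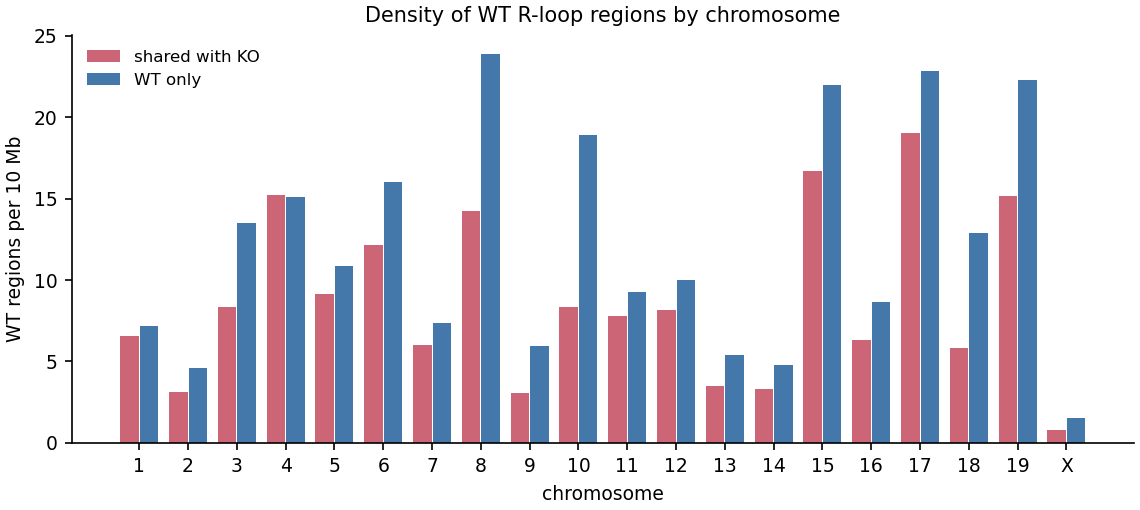
Number of shared and WT-only regions per 10 Mb on chromosomes 1 to 19 and X. Shared regions range from 0.819 on chromosome X to 19.1 on chromosome 17, and WT-only regions from 1.52 on chromosome X to 23.9 on chromosome 8.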

How the data were processed

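DRIP-seq peak lists of 8 immunoprecipitates were used, and the 8 inputs were not analysed here. By the study's methods the authors trimmed reads, aligned them to GRCm38 (mm10) with Bowtie2, removed duplicates, non-unique reads and reads with over 3 mismatches with SAMtools 1.1, and ran MACS2 on individual replicates at q 0.001. The control library given to MACS2 is not given in the sources used here. The deposited lists hold per peak a fold (a ratio of height plus 1 to expected level plus 1), -log10 p and -log10 q values as deposited, a score that the authors' caller made from q and that was not used, and the summit. Height and expected level were solved from the deposited fold and -log10 p. The lists give no read depth. The level assumed by the caller is no measure of it, since by the study's reporting notes the WT RNase R+ library of lowest level had more uniquely mapped reads than either WT RNase R- library. Heights are fragments without molecular identifiers, so intervals cover counting error only. Peak names in the list of WT replicate 1 carry the stem of replicate 2, and the list was taken by its sample label.

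Peaks were merged and overlapped by at least 1 bp on chromosomes 1 to 19 and X. A region in several lists took from each list the peak with the highest -log10 p. Gene positions came from GENCODE's GRCm38 annotation and sequences from RefSeq GRCm38.p6. Python 3.11.15, numpy 2.4.6, pandas 2.3.3, scipy 1.17.1, matplotlib 3.10.9 and bedtools 2.31.1 were used. Regions named were the 10 with the highest enrichment (the lower of the WT lists) called in all 4 lists, the 3 highest and 3 lowest for KO minus WT, promoter regions, regions with KO RNase R+ peaks and genes with most regions. The regions and gene lists were chosen with earlier results of these data known, and the run measure, the small RNA counts and the shared words after values were seen. Scripts were tested on simulated data. Alternatives were the overlap, fold and q thresholds, multi-copy sequence, WT RNase R+ regions, both replicates, each replicate left out, annotation, window and pairing. Exact sign-flip tests over 2 lists cannot go below p = 0.5. Some items that these rules would name are not reported here.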

Additional observations from a re-analysis of the deposited data

How the results depend on the processing

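Of 102 recomputed values, 54 stayed close, 47 moved further and 1 reversed. Close means within 1.5 times for the number of regions and within 1 SD of the replicate lists for other values, an SD near 0 for GC, where any change counts. With KO peaks over most of the region, 35.6% of shared regions held a KO RNase R+ peak. With a fold of at least 10, there were 110 shared regions, the RNase R+ share was 82.7%, and shared minus WT-only differences were 7.06 (promoters), 4.50 (GC) and 0.97 (runs) percentage points, with a KO minus WT log2 difference of -0.10. With a -log10 q of at least 5 these were 1348 regions, 40.1%, 0.67 (GC), 22.7 (runs) and -0.38. With WT RNase R+ regions kept, 37.1%, 0.52 (promoters), 0.67 (GC) and -0.27. With regions of both WT replicates only, 332 regions, 62.7%, 2.91 (promoters), 2.33 (GC), 12.5 (runs) and -0.33. Without multi-copy peaks, 31.7% and -0.24. GC over the whole region gave 0.023. Chosen after seeing the data, runs of at least 20 and 100 bases gave 21.6 and 18.96 and bins of restriction sites 21.04, while the RNase R+ difference was 11.9 for peaks in both lists and, planned, 10.5 within bins of height. The deposited fold reversed the KO minus WT difference to 0.20, by its added 1. The cause of the other changes was not tested.

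Leaving out 1 replicate gave 944 to 2183 shared regions, an RNase R+ share of 24.7% to 43.4%, differences of -2.53 to -0.54 (genes), 0.73 to 1.92 (promoters) and 21.1 to 25.7 (runs), log2 differences of -0.27 to -0.23, and an RNase R+ difference of 16.7 to 16.8. The count of 944 came without WT replicate 1. With the replicate block, the values were 0.333 for GC, -0.26 for log2 enrichment and 22.9 for runs. Shared replicate numbers name no shared culture or day in the labels. Low heights, with medians of 10 and 11 fragments in WT, limit what a missing peak says about a missing R-loop.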
